A study of Homo sapiens with 6 samples.

Results

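The genes described here encode the machinery that shortens the poly(A) tail of an mRNA, removes its cap and degrades its body. They were chosen by gene symbol from a list of 46 genes, and all 46 were found among the 58735 genes of the expression table. HCT116 cells, a human colorectal cancer line labelled wild type (WT), had been transfected with a control (CTR) or with miR-8485 mimics at 50 nM and were collected after 48 h. Total RNA of 3 replicates per group was sequenced, and the question was which transcripts differed between the groups. A mimic is a synthetic copy of a mature miRNA. The sequence and dose of the control are not given in the sources used here, and both groups went through transfection, so no untransfected cells enter the comparison.

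Decay of most mRNAs in mammalian cells begins at the poly(A) tail. The PAN2-PAN3 complex and then the CCR4-NOT complex shorten it, after which the DCP2 enzyme and its partners remove the cap and XRN1 digests the body from its 5′ end, while the RNA exosome digests from the 3′ end. Proteins such as ZFP36 bring CCR4-NOT to mRNAs with AU-rich elements, and miRNAs bring it to their targets through the Argonaute and TNRC6 proteins, so that these genes encode the effectors of miRNA repression as well as possible targets of it.

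The sequences that bear on the comparison are those of the mimic and of its matches in the 3′ UTRs of the decay genes. The mimic has 17 bases, shown here with its seed, bases 2 to 8, in capitals.
miR-8485 mimic: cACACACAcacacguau
The match to this seed is TGTGTGT, a stretch of a TG repeat, and 9 of the 46 genes held it in the 3′ UTR of their canonical transcript in GENCODE release 44 (sense strand of the transcript; overlapping copies counted, so that long repeats count many times). The longest repeats were in PARN, with 21 overlapping copies in a run of 47 bases, and in CNOT6, with 14 copies in 33 bases. DCP2 and TOB2 had 6 copies each, XRN1 had 4, CNOT7 and EXOSC6 had 3, and DCP1A and LSM3 had 1. The sites below are shown because they include both downregulated genes (DCP2, DCP1A) and genes that were not called (CNOT6, PARN, TOB2, XRN1), with all matching bases in capitals. They are written 5′ to 3′ on the transcript strand, and for CNOT6 and PARN they give the first 30 bases of the run.
DCP2, chr5:113014751-113014779, plus strand: tgagtataTGTGTGTGTGTGTaactatca
DCP1A, chr3:53286764-53286792, minus strand: aatgctaagttTGTGTGTgaagcacagcc
TOB2, chr22:41435471-41435499, minus strand: gggaggggTGTGTGTGTGTGTatttggtt
XRN1, chr3:142307493-142307521, minus strand: agctgctttTGTGTGTGTGTcagtgaaca
CNOT6, chr5:180577164-180577193, plus strand: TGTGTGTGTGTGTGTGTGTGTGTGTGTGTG
PARN, chr16:14435915-14435944, minus strand: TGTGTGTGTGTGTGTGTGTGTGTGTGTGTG
The coordinates are those of hg38, the build that the authors mapped to. In CNOT7, whose sequence is not shown, the 3 matches were single and lay far apart, starting at bases 1284, 2747 and 4895 of a 3′ UTR of 5754 bases.

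The libraries held 17473874 to 18480047 fragments on listed genes. Levels are FPKM, fragments divided by gene length and library total, and each of the 46 genes had a mean of at least 1 FPKM and was tested. The length is the one deposited for the gene, which need not be that of the transcript expressed. Levels of different genes can therefore be compared only roughly. The smallest number of fragments behind a value was 288, for PAN2. Compared in pairs by their fragments, the libraries gave a chi-square per gene (near 1 under counting error alone) of 7.74 to 9.60 for pairs of CTR replicate 1 with another CTR library, 2.68 to 3.67 for the other pairs within a group and 54.4 to 62.4 between groups. Of 8 colorectal epithelial markers, 6 had a mean of at least 1 FPKM (EPCAM, KRT8, KRT18, KRT20, CDH1 and CDX2), with a summed level of 1519 to 1647 FPKM in CTR and 1006 to 1039 in miR-8485, while VIL1 and CDX1 were near 0. Within this list KRT8 and KRT18 fell, CDX2 and KRT20 rose, and EPCAM and CDH1 were not called. Of 8 markers of other cell types, COL1A1 and ACTA2 had a mean above 1 FPKM and 5 had a mean below 0.1. The remaining marker, ALB, had a mean of 0.0273 FPKM in CTR and 0.355 in miR-8485. The summed level of the 8 was 5.18 to 5.59 FPKM in CTR and 9.22 to 9.35 in miR-8485. The part of these marker changes in the results was not tested. In such bulk samples, fewer cells with a transcript and less of it per cell cannot be told apart, and FPKM does not show a change of total RNA per cell.

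Of the 46 genes, 10 (21.7%) were upregulated and 15 (32.6%) were downregulated in the miR-8485 libraries, and 21 did not pass the test (limma on log2(FPKM + 0.1), two-sided, Benjamini-Hochberg adjusted p under 0.05 over the 12349 tested genes). Across all tested genes 29.1% were upregulated and 30.5% downregulated, so that the decay genes were called in about the proportions of the transcriptome as a whole. Their median log2 fold change was -0.08, against -0.0041 for all tested genes. The changes did not run in one direction. PATL1, TOB1, ZFP36, EXOSC9 and CNOT7 had the largest falls, and EXOSC5, DCP1B and the poly(A)-binding proteins the largest rises. Of the calls, 7 upregulated and 7 downregulated genes kept theirs in each of 16 alternative analyses, and DCP1B and LSM6 in the 15 that tested them (their mean FPKM was under 5, the filter of the other one). On the TPM scale, which moves the median of all tested genes to -0.12, the counts were 8 upregulated and 22 downregulated genes, and 35.6% of all calls were upward instead of 48.8%. The downregulated genes had a median GC content of 41.7% and the upregulated genes 54.1%. With the trend of fold change against GC content removed, 9 of the 10 upward and 11 of the 15 downward calls were kept, and EDC4 was called downward in addition.

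**Figure D1:**
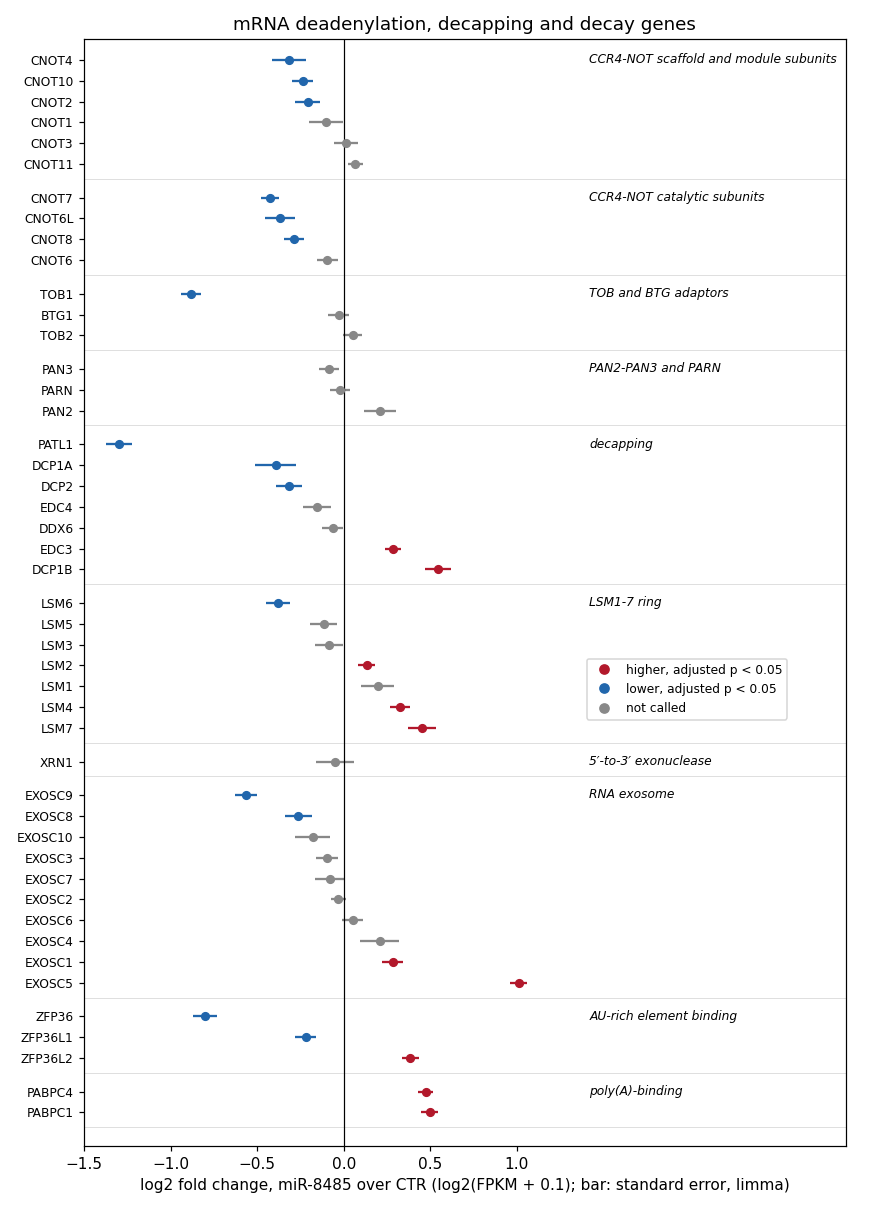
Log2 fold change of each of the 46 genes (x axis, miR-8485 over CTR, on log2(FPKM + 0.1)), ordered within functional groups; points are limma estimates, bars standard errors, and colours mark the calls at an adjusted p under 0.05. PATL1 lies lowest at -1.30 and EXOSC5 highest at 1.01, and no CCR4-NOT gene was called upward.

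The CCR4-NOT complex is built on CNOT1, a scaffold that holds its nuclease and binding modules, and its tail-shortening activity comes from exchangeable nucleases, CNOT6 or CNOT6L on one side and CNOT7 or CNOT8 on the other. Of its 10 genes on the list, 6 (60%) were downregulated and none upregulated, with a median log2 fold change of -0.22. Across all tested genes 30.5% were downregulated and 29.1% upregulated. The 10 genes had a median GC content of 42.9% and a median length of 6940 bases, against 49.1% and 4523 bases for all tested genes. The calls of CNOT2 and CNOT6L were lost with the GC trend removed, and those of CNOT2 and CNOT4 with the trend against gene length removed. CNOT9, a core subunit that is not on the list and is named here after its values were seen, was at 17.2, 16.4 and 16.4 FPKM in CTR and 11.8, 12.3 and 11.5 in miR-8485 (-0.48 ± 0.05, adjusted p = 1.2e-04, limma), without overlap. CNOT9 belongs to a further list of 9 deadenylation genes, of which 5 (55.6%) rose and 4 (44.4%) fell. TNKS1BP1, in the same list, rose from 7.83 to 10.1 FPKM (0.37 ± 0.06, adjusted p = 0.0014, limma). Among the nucleases, CNOT7, CNOT8 and CNOT6L fell, and CNOT6 was not called. CNOT7 stood at 13.9, 13.4 and 12.5 FPKM in CTR replicates 1 to 3 and at 9.84, 9.83 and 9.82 in the miR-8485 replicates. The groups lay apart, and the log2 fold change was -0.43 (SE 0.05, adjusted p = 3.9e-04, limma). CNOT7 shares 308 bases with VPS37A on the opposite strand, whose mean went from 6.34 to 5.05 FPKM.

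CNOT8, the paralog that occupies the same position, stood at 18.9, 17.2 and 17.0 FPKM in CTR and 13.9, 14.7 and 14.8 in miR-8485, again without overlap (-0.29 ± 0.06, adjusted p = 0.0035, limma). Together CNOT7 and CNOT8 went from 31.0 ± 1.65 to 24.3 ± 0.465 FPKM (SD, n = 3). CNOT6L was the lowest of the 4 nucleases, at 2.82, 2.97 and 2.91 FPKM in CTR and 2.15, 2.12 and 2.41 in miR-8485 (-0.37 ± 0.09, adjusted p = 0.0075, limma). Its groups did not overlap, but its adjusted p was 0.057 with the GC trend removed. CNOT6 was at 13.1, 14.7 and 14.7 FPKM in CTR and at 13.0, 13.8 and 13.0 in miR-8485, groups that overlapped, and was not called (-0.09, adjusted p = 0.22, limma). It passed without CTR replicate 1 (adjusted p = 0.039) and on the TPM scale (adjusted p = 0.017). Its fold change was -0.031 with the length trend removed (adjusted p = 0.66) and 0.027 with the GC trend removed (adjusted p = 0.74). CNOT6 is also the nuclease with the 14 seed matches shown above.

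Of the other CCR4-NOT genes on the list, CNOT10, CNOT2 and CNOT4 fell, and CNOT1, CNOT3 and CNOT11 were not called. CNOT1 had 14.3, 18.4 and 17.5 FPKM in CTR and 14.5, 16.3 and 15.7 in miR-8485, so that its CTR replicate 1 lay below all 3 miR-8485 libraries (-0.10, adjusted p = 0.39, limma). Without that library the fold change was -0.21 with an adjusted p of 0.027. With the trend against gene length removed it was 0.027 with an adjusted p of 0.80. CNOT4, a ubiquitin ligase, had 2.98, 3.66 and 3.18 FPKM in CTR and 2.49, 2.54 and 2.78 in miR-8485 (-0.32 ± 0.10, adjusted p = 0.026, limma). This call was lost in 6 alternatives, with adjusted p-values of 0.051 to 0.083, namely with no filter on low values, with the trend against gene length removed, and without CTR replicate 2, CTR replicate 3, miR-8485 replicate 1 or miR-8485 replicate 2. CNOT10, which forms a module with CNOT11, fell from a mean of 10.5 to 8.87 FPKM (-0.24, adjusted p = 0.010, limma), whereas CNOT11 went from 35.3 to 37.0 FPKM (0.07, adjusted p = 0.22). CNOT2 and CNOT3 form another module. CNOT2 fell from 3.70 to 3.19 FPKM (-0.21, adjusted p = 0.043, limma), a call that was lost in 10 of the 15 alternatives that tested it (adjusted p 0.051 to 0.44), including every omission of a single library other than CTR replicate 1. CNOT3 was at 10.8 and 10.9 FPKM.

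TOB and BTG proteins bind the CNOT7 or CNOT8 nuclease, and the TOB proteins also bind poly(A)-binding protein. TOB1, on chromosome 17 (chr17:50862223-50867978), was one of the genes with the largest fall, from 88.8, 78.8 and 83.1 FPKM in CTR to 47.0, 43.8 and 45.0 in miR-8485. The miR-8485 mean was 54.1% of the CTR mean (-0.88 ± 0.06, adjusted p = 1.6e-05, limma), with no overlap of the groups. Its paralog TOB2, with the repeat shown above, was at 15.1, 16.9 and 16.5 FPKM in CTR and 17.1, 16.3 and 16.8 in miR-8485 (0.05, adjusted p = 0.46), so that TOB1 made up 83.8% ± 1.6 of the summed TOB level in CTR and 73.0% ± 0.302 in miR-8485 (SD, n = 3). BTG1 had means of 13.0 and 12.7 FPKM and was not called.

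PAN2 and PAN3, the nuclease and the RNA-binding subunit of the other deadenylase, were expressed at low levels and were not called. PAN2 was at 2.51, 2.47 and 2.18 FPKM in CTR and 2.95, 2.74 and 2.65 in miR-8485. All 3 miR-8485 libraries lay above the CTR libraries, with a fold change of 0.21 ± 0.09 and an adjusted p of 0.083 in limma. It passed the threshold with the length trend removed (adjusted p = 0.034) and with voom on recovered fragments (adjusted p = 0.045). PAN2 shares 114 bases with CNPY2 on the same strand, whose mean went from 1.34 to 2.07 FPKM. PAN3 was at 5.28, 4.97 and 5.03 FPKM in CTR and 4.62, 4.94 and 4.82 in miR-8485, also without overlap, and was not called (-0.09, adjusted p = 0.24). PARN, a poly(A)-specific ribonuclease, had the longest TG repeat of the 46 genes and means of 10.6 and 10.5 FPKM (-0.02 ± 0.06, adjusted p = 0.78).

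Decapping is carried out by DCP2, with DCP1A or DCP1B as its cofactor and with PATL1, EDC3, EDC4, the helicase DDX6 and the LSM1-7 ring as activators. PATL1, which links deadenylated mRNA and the LSM1-7 ring to decapping, had the largest fall of the 46 genes. It lies on chromosome 11 (chr11:59636716-59668980) and stood at 12.3, 13.5 and 14.7 FPKM in CTR and 5.21, 5.40 and 5.60 in miR-8485. Its miR-8485 mean was 40.1% of that in CTR (-1.30 ± 0.07, adjusted p = 1.1e-05, limma), and all miR-8485 libraries lay far below all CTR libraries. The annotation puts AP000442.2 on the opposite strand within it, at means of 1.07 and 1.03 FPKM.

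DCP2 was at 6.41, 5.62 and 5.72 FPKM in CTR and 4.69, 4.47 and 5.02 in miR-8485. The groups did not overlap (-0.32 ± 0.08, adjusted p = 0.0080, limma), but the call was lost with the length trend removed (adjusted p = 0.070) and with the GC trend removed (adjusted p = 0.062). The cofactor genes moved in opposite directions. DCP1A was at 5.60, 6.95 and 7.17 FPKM in CTR and 4.32, 5.24 and 5.37 in miR-8485, without overlap of the groups (-0.39 ± 0.12, adjusted p = 0.023, limma). Its adjusted p was 0.070 to 0.076 in 4 alternatives, those with no filter on low values and those without CTR replicate 2, CTR replicate 3 or miR-8485 replicate 1. DCP1B was at 3.49, 3.55 and 3.56 FPKM in CTR and rose to 5.54, 4.74 and 5.34 (0.54 ± 0.07, adjusted p = 5.7e-04, limma). The sum of DCP1A and DCP1B was 10.1 ± 0.886 FPKM in CTR and 10.2 ± 0.463 in miR-8485, while the share of DCP1B in it went from 35.1% ± 2.83 to 51.2% ± 4.53 (SD, n = 3).

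Among the other activators, EDC3 rose from 8.74 to 10.7 FPKM (0.28 ± 0.05, adjusted p = 0.0017, limma), with an adjusted p of 0.051 on the TPM scale. EDC3 shares 14857 bases of its locus with CLK3 on the opposite strand, which fell from 4.01 to 3.31 FPKM. EDC4, a scaffold for the decapping enzyme, went from 14.1 to 12.6 FPKM and was not called (-0.15, adjusted p = 0.14), but it passed without CTR replicate 1 (-0.24, adjusted p = 0.010), on the TPM scale (adjusted p = 0.019) and with the GC trend removed (adjusted p = 0.046). DDX6 had means of 14.1 and 13.4 FPKM. XRN1, the 5′-to-3′ exonuclease that follows decapping, was the lowest of the 46 genes in CTR, at 1.76, 1.99 and 2.16 FPKM, against 1.84, 1.88 and 1.95 in miR-8485. Its groups overlapped and it was not called (-0.05 ± 0.11, adjusted p = 0.71).

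**Figure D2:**
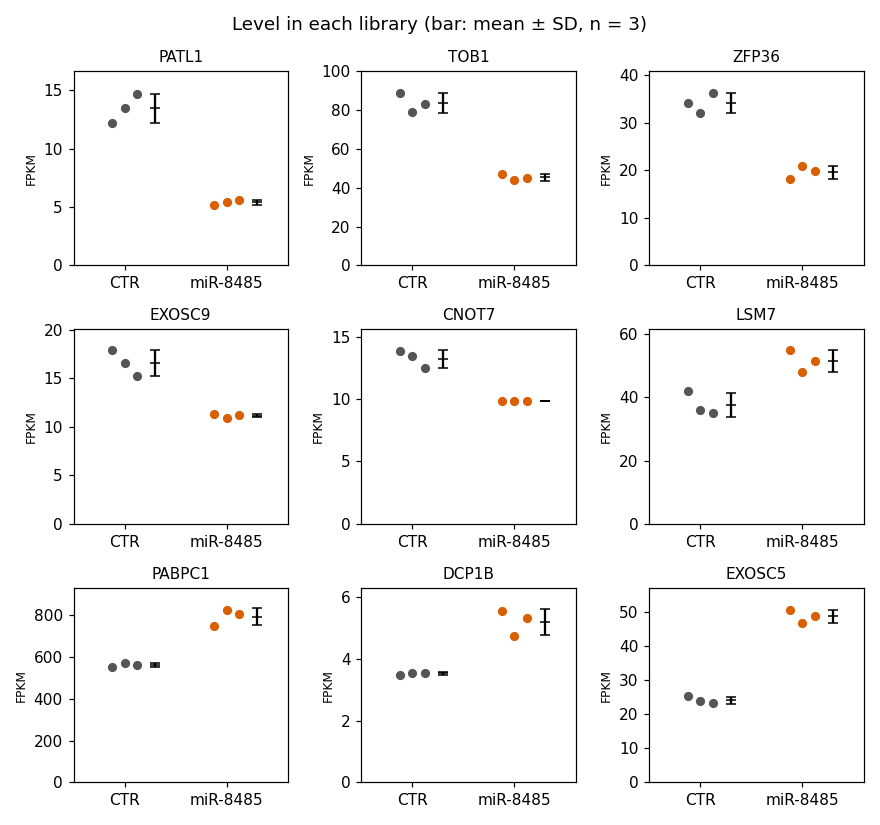
FPKM (y axes, from 0) in each library of 9 genes with large changes, 3 points per group, with the mean ± SD (n = 3) beside them. PATL1 lies at 12.3 to 14.7 FPKM in CTR against 5.21 to 5.60 in miR-8485, and EXOSC5 at 23.3 to 25.3 against 47.0 to 50.6. The 9 genes were picked for their changes, so that the separation of their groups is not a result about the decay genes.

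The LSM1-7 proteins form a ring that binds the 3′ end of deadenylated mRNA, and all of them except LSM1 are shared with the nuclear LSM2-8 ring of the spliceosome. Within the ring 3 genes (42.9%) rose (LSM7, LSM4, LSM2), 1 (14.3%) fell (LSM6) and 3 were not called (LSM1, LSM3, LSM5). Across all tested genes 29.1% rose and 30.5% fell. LSM7 was at 41.9, 35.8 and 35.1 FPKM in CTR and 54.8, 48 and 51.4 in miR-8485 (0.45 ± 0.08, adjusted p = 0.0021, limma). LSM4 was at 80.1, 71.4 and 74.1 FPKM in CTR and 99.4, 92.4 and 90.9 in miR-8485 (0.33 ± 0.06, adjusted p = 0.0021). LSM6 was at 5.78, 5.30 and 5.62 FPKM in CTR and 4.46, 4.35 and 3.96 in miR-8485 (-0.38 ± 0.07, adjusted p = 0.0024). None of these 3 genes overlapped between the groups. The ring gene with the lowest FPKM in CTR, LSM6, thus fell, while the one with the highest, LSM4, rose. LSM7 shares 6 bases with SPPL2B on the opposite strand, a gene that rose from 6.64 to 9.13 FPKM.

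LSM2 rose least, from 50.5 to 55.4 FPKM (0.13, adjusted p = 0.049, limma). The call was lost in 10 alternatives (adjusted p 0.056 to 0.78), including every omission of a single library other than miR-8485 replicate 3, and in 1 of them, with the length trend removed, the direction turned to -0.098. LSM1, the subunit that sets the cytoplasmic ring apart, went from 10.8 to 12.5 FPKM and was not called (0.20, adjusted p = 0.11). In miR-8485 replicate 2 it stood at 10.7, inside the CTR range, and without that library the fold change was 0.30 with an adjusted p of 0.0091, while it was 0.0255 with the length trend removed. LSM3 and LSM5 had fold changes of -0.08 and -0.12.

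The RNA exosome has a barrel of 6 subunits (EXOSC4 to EXOSC9), a cap of EXOSC1, EXOSC2 and EXOSC3, and the nuclear nuclease EXOSC10. Of these 10 genes 2 (20%) rose, 2 (20%) fell and 6 were not called, against 29.1% and 30.5% of all tested genes in the 2 directions. EXOSC5, a barrel subunit encoded on chromosome 19 (chr19:41386374-41397479), had the largest rise of the 46 genes, from 25.3, 24.0 and 23.3 FPKM in CTR to 50.6, 47.0 and 48.8 in miR-8485. The miR-8485 mean was 202% of the CTR mean (1.01 ± 0.05, adjusted p = 6.6e-06, limma), and the groups lay well apart. EXOSC9, another barrel subunit, fell from 17.9, 16.6 and 15.3 FPKM in CTR to 11.3, 11 and 11.2 (-0.56 ± 0.06, adjusted p = 2.4e-04), without overlap. EXOSC9 shares 578 bases with the cyclin gene CCNA2 on the opposite strand, which fell from 42.1 to 22.4 FPKM (-0.91). The sources used here do not state whether the counting used strand, and reads of the shared bases cannot then be assigned to either gene. The ratio of EXOSC5 to EXOSC9 was 1.46 ± 0.0584 in CTR and 4.37 ± 0.10 in miR-8485 (SD, n = 3).

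EXOSC1 rose from 9.09 to 11.1 FPKM (0.28 ± 0.06, adjusted p = 0.0052, limma), a call kept in each alternative. EXOSC8 fell from 10.5 to 8.70 FPKM (-0.26, adjusted p = 0.024), and it overlaps ALG5 and SUPT20H on the opposite strand, both of which rose. The EXOSC8 call was lost with no filter on low values (adjusted p = 0.065), with the GC trend removed (0.21), and without CTR replicate 1 (0.067), CTR replicate 2 (0.068) or miR-8485 replicate 3 (0.076). EXOSC4 and EXOSC10 were not called, at 0.21 and -0.18, but without CTR replicate 1 their fold changes were 0.33 (adjusted p = 0.010) and -0.29 (adjusted p = 0.0073). EXOSC4 also passed with voom (adjusted p = 0.038), but its fold change was 0.0024 with the length trend removed and 0.059 with the GC trend removed. EXOSC10 passed on the TPM scale (adjusted p = 0.027). EXOSC2, EXOSC3, EXOSC6 and EXOSC7 had fold changes between -0.10 and 0.05.

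The ZFP36 family binds AU-rich elements in 3′ UTRs and recruits CCR4-NOT to them, and its 3 genes changed in both directions. ZFP36 (chr19:39406813-39409412) fell from 34.1, 32.1 and 36.3 FPKM in CTR to 18.2, 20.8 and 19.8 in miR-8485, which is 57.3% of the CTR mean (-0.80 ± 0.07, adjusted p = 5.4e-05, limma). ZFP36L2 rose from 20.9, 21.3 and 21.0 FPKM to 26.1, 28.6 and 28.0 (0.39 ± 0.05, adjusted p = 3.8e-04). In CTR every library had more ZFP36 than ZFP36L2, and in miR-8485 every library had less. ZFP36L1, the most abundant of them, was at 59.9, 69.1 and 68.8 FPKM in CTR and 56.2, 56.3 and 57.0 in miR-8485 (-0.22 ± 0.06, adjusted p = 0.016), with adjusted p-values of 0.055 without CTR replicate 2 and 0.057 without CTR replicate 3. The summed level of the family went from 121 ± 5.68 to 104 ± 2.80 FPKM (SD, n = 3). Within it the share of ZFP36 went from 28.2% ± 1.79 to 18.9% ± 0.795 and that of ZFP36L2 from 17.4% ± 0.751 to 26.6% ± 0.552, while ZFP36L1 held 54.4% ± 2.15 and 54.5% ± 1.34.

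The poly(A)-binding proteins coat the tail that the deadenylases remove, and both genes rose. PABPC1, by far the most abundant of the 46 genes, was at 551, 571 and 562 FPKM in CTR and 748, 825 and 805 in miR-8485 (0.50 ± 0.05, adjusted p = 1.2e-04, limma). PABPC4 was at 36.1, 38.8 and 37.1 FPKM in CTR and 50.9, 53.2 and 51.5 in miR-8485 (0.47 ± 0.04, adjusted p = 9.5e-05). Neither gene overlapped between the groups, and their means rose to 141% and 139% of CTR. PABPC4 made up 6.24% ± 0.115 of their sum in CTR and 6.15% ± 0.196 in miR-8485 (SD, n = 3). PABPC1 has 13 pseudogene entries in the table, and the fragments counted on them came to 0.065% of its own. Of the 46 genes 11 had such entries, with at most 0.34% of the fragments of the gene. Reads shared between PABPC1 and its pseudogenes were not measured, so that its level is uncertain to that extent.

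**Figure D3:**
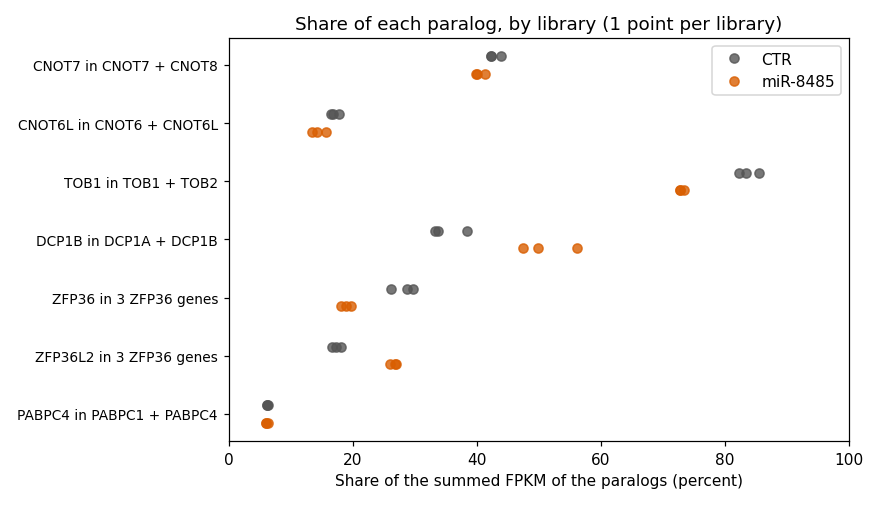
Share of a paralog in the summed FPKM of its family (x axis, percent, 0 to 100), with 1 point per library and the groups in separate colours. The mean DCP1B share is 35.1% in CTR and 51.2% in miR-8485, the order of ZFP36 and ZFP36L2 differs between the groups, and the PABPC4 share is 6.24% and 6.15%.

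The shares and the ratio above were chosen for comparison after their values had been seen. Their sizes, and those of the sums, depend on the deposited gene lengths. In 7 of the 9 the libraries of the groups did not overlap, which gives the smallest p that an exact two-sided permutation test of 3 against 3 libraries allows, 0.1 (0.129 after Benjamini-Hochberg adjustment over the 9), so that no such comparison could reach 0.05. The PABPC4 share had an exact permutation p of 0.6 and the ZFP36L1 share a p of 1.

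The genes with the most copies of the seed match were not those with the largest falls. Of the 9 genes with a match, 3 (33.3%) were downregulated (CNOT7, DCP1A and DCP2) and none upregulated. Of the 37 without a match, 12 (32.4%) were downregulated and 10 (27.0%) upregulated. The median log2 fold change was -0.084 with a match and -0.080 without. Across all tested genes with a 3′ UTR, 28.9% held the match. Of those, 44.6% were downregulated and 19.6% upregulated (median log2 fold change -0.16). Of the genes without it, 29.2% were downregulated and 31.9% upregulated (median 0.02). The 3′ UTRs with a match were longer, with a median of 2720 bases against 876 over all tested genes. Among the decay genes the medians were 4158 and 757 bases. The genes with the largest falls, PATL1, TOB1, ZFP36 and EXOSC9, held no copy of TGTGTGT in the 3′ UTR searched, which says only that these letters are absent from that window. The genes with the longest repeats, PARN and CNOT6, had fold changes of -0.02 and -0.09.

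**Figure D4:**
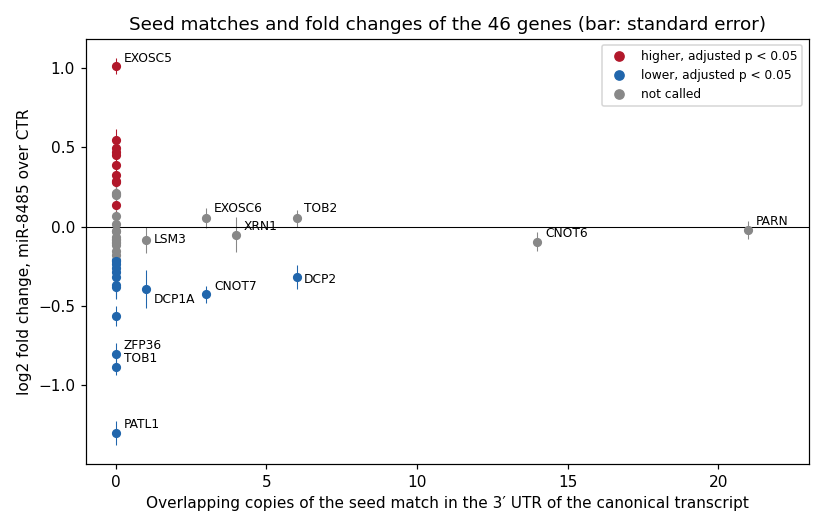
Overlapping copies of TGTGTGT in the 3′ UTR (x axis) against log2 fold change, miR-8485 over CTR (y axis, bars are standard errors), 1 point per gene, coloured by call. PATL1, TOB1, ZFP36 and EXOSC5 lie at 0 copies, and PARN with 21 copies lies at -0.02.

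A list of 53 other genes of mRNA decay was measured beside them. All 53 were tested, and 16 rose, 19 fell and 18 did not pass, or 30.2% and 35.8% in the 2 directions against 29.1% and 30.5% of all tested genes. The named genes below are those with an absolute log2 fold change of at least 0.5. Around deadenylation, 5 of 9 genes (55.6%) rose and 4 (44.4%) fell. BTG2, an antiproliferative adaptor related to BTG1, rose from 20.0 to 33.2 FPKM (0.73), whereas BTG3 fell from 42.2 to 28.7 (-0.56). ANGEL1 and ANGEL2, relatives of the CNOT6 nucleases, rose by 0.57 and 0.56. Among 12 other genes of decapping and 5′-to-3′ decay, 8 (66.7%) rose and 2 (16.7%) fell. NUDT16, an alternative decapping enzyme, rose from 3.09 to 5.68 FPKM (0.86) and NUDT3, another, from 0.831 to 1.38 (0.67). DXO, which removes incomplete caps, rose by 0.64, PNRC2, a decapping cofactor, by 0.70 and NBDY, a microprotein of P-bodies, by 0.54. LSM14A, a P-body protein with 19 copies of TGTGTGT, fell from 24.2 to 17.0 FPKM (-0.51).

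Among 15 exosome nucleases and cofactors, 1 (6.67%) rose and 5 (33.3%) fell, against 29.1% and 30.5% of all tested genes. TENT4A, a noncanonical poly(A) polymerase, fell from 8.13 to 5.16 FPKM (-0.65). Of 9 other genes of proteins that bind 3′ UTR elements, 1 (11.1%) rose and 5 (55.6%) fell. The falls included TIAL1, which binds U-rich RNA, from 25.0 to 16.9 FPKM (-0.57), and ZC3H12A, an endonuclease of inflammatory mRNAs, from 4.49 to 3.09 (-0.54). Of 8 genes of poly(A)-binding protein partners and uridylation, 1 (12.5%) rose and 3 (37.5%) fell. LARP4, a poly(A)-binding protein partner with 7 copies of the match, fell from 12.2 to 7.22 FPKM (-0.75). NUDT16 and NUDT3, which rose, held 4 copies each.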

How the data were processed

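RNA-seq of 6 libraries, 3 CTR and 3 miR-8485, was analysed, grouped by the labels, which call the replicates of a group independent. After trimming by fastp, the authors aligned the reads to hg38 using HISAT2 2.0.5, counted fragments per gene with featureCounts 1.5.0-p3 (strand setting not given in the sources used here) and deposited FPKM values. In each library 100% of the values were whole multiples of 1 fragment, within 0.05 fragment, which gave the depth; the deposited gene lengths served for this and for TPM. The spread between replicates was above counting error, so that the standard errors, not the fragments alone, give the precision of a gene.

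The 12349 genes whose FPKM averaged 1 or more over the libraries were tested by limma 3.58.1 in R 4.3.3 (log2(FPKM + 0.1), eBayes with its trend option, two-sided), and p-values were adjusted over all of them by Benjamini-Hochberg. Fold changes on this scale understate those of low genes. The script was first tested on simulated data. The genes and lists were chosen with earlier results of these data known. Values per library are given for called genes with an absolute log2 fold change of at least 0.3 and for the CCR4-NOT nucleases, CNOT1, PAN2, PAN3, DCP2, XRN1 and the ZFP36 genes. PAN2-PAN3, CCR4-NOT and other roles were assigned by symbol.

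As 16 alternatives, the fit was repeated with pseudocounts of 1 and 0.01, without the filter, with the filter set at 5 FPKM, after scaling by median of ratios, as TPM, after subtracting a lowess trend in length or in GC content, by voom (recovered fragments), with replicate number as a block, and without each library in turn. Canonical 3′ UTRs of GENCODE release 44 on hg38 were searched for the match to the seed of the mimic, whose sequence came from the methods of the study. Other experiments of the study were not analysed here.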

Additional observations from a re-analysis of the deposited data

How the results depend on the processing

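A filter at 5 FPKM left 6878 genes and gave 2303 upregulated and 2417 downregulated genes, and by construction tested 38 of the 46 decay genes. The counts of decay genes called ranged from 8 to 12 upward and 10 to 22 downward over the 16 alternatives. Over the alternatives, 40 comparisons lost a call with the direction kept, 19 gained one and 24 changed sign. Apart from LSM2 (-0.098 with the length trend removed), the sign changed only in genes that were not called. With the length trend removed these were CNOT1 (0.027), DDX6 (0.072) and XRN1 (0.087). With the GC trend removed they were CNOT3 (-0.088), CNOT6 (0.027), BTG1 (0.11), PARN (0.011), DDX6 (0.054), LSM5 (0.031) and XRN1 (0.092), and on the TPM scale CNOT3 (-0.10), CNOT11 (-0.048), TOB2 (-0.064) and EXOSC6 (-0.062). With single libraries left out, CNOT3 ranged from -0.045 to 0.067, BTG1 from -0.068 to 0.0093, PARN from -0.063 to 0.0076, LSM3 from -0.13 to 0.0020, XRN1 from -0.13 to 0.013 and EXOSC7 from -0.14 to 0.015. The TPM scale also called PAN3, DDX6, EXOSC2 and EXOSC3 downward. The cause of these changes was not tested. With the replicate number as a block, 12 decay genes rose and 14 fell (3634 and 3754 of all tested genes), with LSM1 (adjusted p = 0.034) and EXOSC4 (0.014) gained and CNOT2 (0.051) lost. Same-numbered libraries deviated together with r of -0.064 to 0.067, and differently numbered ones with r of -0.094 to 0.061, so that the numbers are not taken to pair the samples. XRN1, the lowest gene, had 381 to 468 fragments per library and a standard error of 0.11, so that its data do not tell a small change from none.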
